A study of Mus musculus with 15 samples.

Results

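Heart muscle cells from mice killed 3 days after a whole-body exposure to accelerated iron ions were compared with the same cells taken 1 day after it. The comparison rests on 6 of the 15 arrays of the series, 3 from each day, chosen by their labels. The mice were male C57Bl/6NT, 8 to 9 months old, and each irradiated animal had 0.15 Gy (15 cGy) of iron ions at 1 GeV per nucleon, with a linear energy transfer of about 151 keV per µm. The other arrays were 2 each from days 7, 14 and 28 after iron, 2 from sham-exposed mice on day 1 and 1 from a sham-exposed mouse on day 3. No group carried a genetic change, per the labels, and both days compared here had the same exposure, so the comparison is one of time after exposure and holds no unexposed cells. The cells were left ventricular cardiomyocytes freed with collagenase and made calcium tolerant in steps, a preparation that the labels describe as mostly cardiomyocytes with some inflammatory and endothelial cells. The labels do not say that the arrays of a group came from different mice, so the spread between them may be partly technical.

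Heavy ions lose energy densely along a track, and cells that survive them pass through phases of signalling, repair and recovery over hours to weeks. Immediate early genes encode transcription factors and feedback proteins that are switched on within minutes of a stimulus without new protein synthesis, and they are also known to respond to the digestion and handling of tissue. Small nucleolar RNAs are short, stable nuclear RNAs: those of the C/D class guide ribose methylation of ribosomal RNA, those of the H/ACA class guide its pseudouridylation, and most are cut from the introns of a longer host transcript.

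Levels are log2 signals, in which a difference of 1 is a doubling, and each gene is represented by 1 probe set. Of 19937 genes, the 9969 with a mean log2 signal over all arrays of at least 5.51, the median gene's value, were tested with limma, and p-values were adjusted over all 9969 by the Benjamini-Hochberg method at a threshold of 0.05. The error of each difference was estimated from all 15 arrays, since each group fitted had only 2 or 3 arrays. No permutation test was run, and 3 arrays against 3 cannot give an exact permutation p under 0.1. The 15 cardiomyocyte markers were all tested. Troponin T, Tnnt2, stood at 12.43, 12.43 and 12.52 on day 1 and at 12.53, 12.54 and 12.49 on day 3. The median difference over the marker list was 0.04, with 0 of 15 past the adjusted threshold. At an unadjusted p under 0.05 there was 1 of 15, against 12.9% of all genes in either direction.

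Several arrays stood apart from the rest. Iron day 1 replicate 1 was closer to the sham day 1 arrays (SD of the difference between arrays, divided by the square root of 2, of 0.142 and 0.154) than to the other iron day 1 arrays (0.215 and 0.249). It also had higher signals of non-myocyte genes than they did, so the results below are given with and without it. Iron day 3 replicate 1 had lower small nucleolar RNA signals than the other iron day 3 arrays. Both iron day 28 arrays were more alike (0.0970) than any other pair of one group, the next being 0.146. They enter the comparison through the estimate of error and through the mean signal used to choose probe sets and filter genes. The sham day 3 array carried high signals of airway and lymphoid genes.

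Day 3 differed from day 1 in 5 genes, all higher on day 3, and in 0 lower genes: 0.0502% of the genes tested passed in the higher direction and 0% in the lower one. They were the transcriptional coregulator gene Cited2, the small nucleolar RNAs Snord49b and Snora21, and the long noncoding RNA genes Gm24463 and C130036L24Rik. At an unadjusted p under 0.05, 628 genes (6.3%) were higher and 661 (6.63%) lower on day 3, 1289 (12.9%) in all where 498 would be met at that level with no difference anywhere, and the median difference over all genes was 0.01. All arrays of day 3 lay above all arrays of day 1 for 971 genes (9.74%) and below them for 992 (9.95%). The 5 calls depend on the estimate of error. They numbered 0 when only the 6 arrays compared were fitted, 0 when the alike iron day 28 arrays were averaged as 1 sample or either was left out, 0 without iron day 1 replicate 2, iron day 3 replicate 2 or 3, or sham day 1 replicate 1, 3 without iron day 1 replicate 1, sham day 1 replicate 2 or the sham day 3 array, 8 without either iron day 14 array, 14 without either iron day 7 array and 30 without iron day 3 replicate 1.

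**Figure D1:**
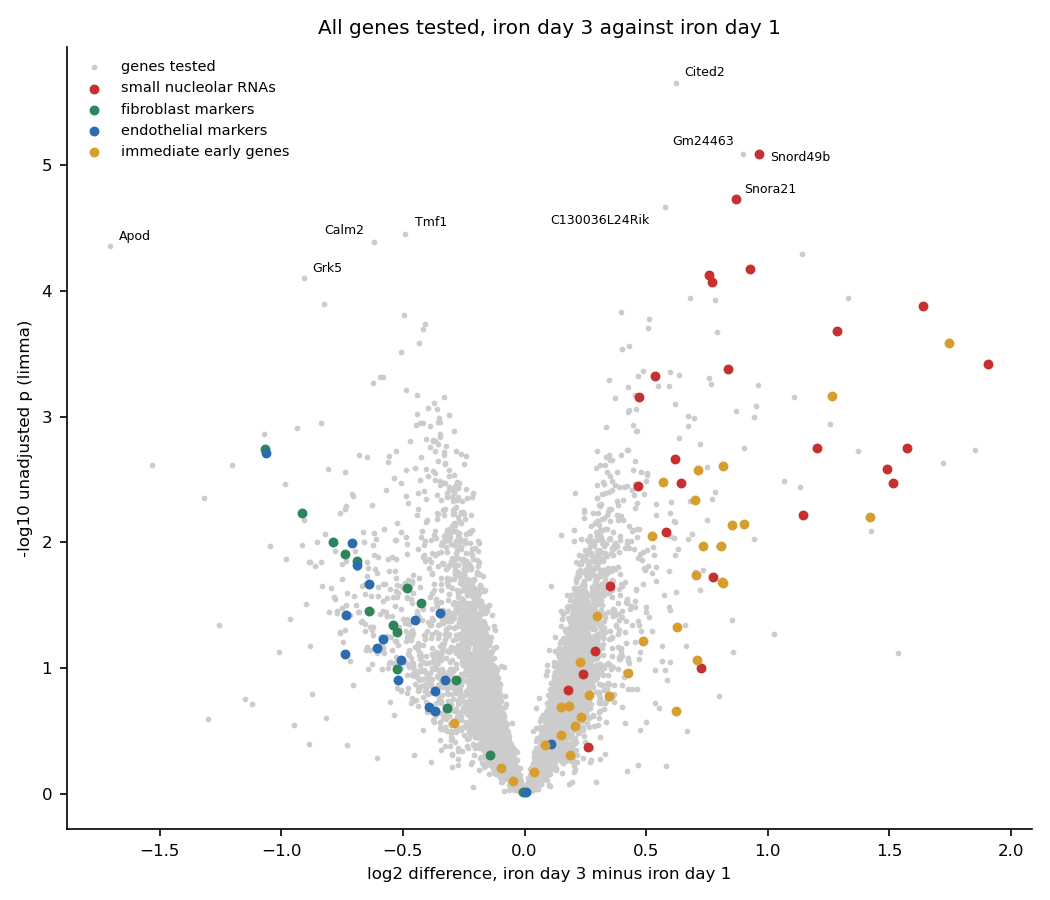
Each point is 1 of 9969 genes, with the log2 difference of iron day 3 minus iron day 1 on the x axis and the -log10 of the unadjusted limma p on the y axis. Small nucleolar RNAs (red) and immediate early genes (yellow) lie mostly on the right, and fibroblast (green) and endothelial (blue) markers mostly on the left.

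Cited2 rose with the smallest p of all genes. It encodes a coregulator that competes with hypoxia-inducible factors for the coactivators CBP and p300 and is needed for heart development. Its log2 signal was 8.55, 8.64 and 8.84 in the day 1 arrays and 9.32, 9.31 and 9.27 in the day 3 arrays, so the groups did not overlap and the day 3 arrays were almost equal. The difference was 0.62 (SE 0.079, 1.54-fold, adjusted p = 0.0219). Sham arrays stood at 8.69 and 8.65 on day 1 and at 8.64 on day 3, next to the iron day 1 arrays. The means on days 7, 14 and 28 were 9.16, 8.89 and 8.94, between those of day 1 and day 3. Without iron day 1 replicate 1 the difference was 0.56 and its adjusted p 0.0452, and the call was lost under 9 of 26 alternatives, with adjusted p from 0.00508 to 0.31.

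The promoter window of Cited2 is printed because it is the protein-coding gene that rose. In the RefSeq sequence of build GRCm38.p6 its 250 bases before the start hold 1 match to CACGTG, the palindromic E-box core, shown in capitals and starting 153 bases before the annotated start. The window is chr10:17723018-17723137 on the + strand. Among promoters of genes tested, 8.5% hold this motif, and 6.02% of all promoters in the table do.
Cited2: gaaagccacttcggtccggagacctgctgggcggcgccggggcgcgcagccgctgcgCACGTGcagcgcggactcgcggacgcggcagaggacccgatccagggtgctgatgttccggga

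Gm24463 and C130036L24Rik, both annotated as long noncoding RNA genes, also rose. Gm24463 stood at 6.20, 6.15 and 6.11 on day 1 and at 6.94, 6.98 and 7.24 on day 3, a difference of 0.90 (SE 0.128, 1.86-fold, adjusted p = 0.0273). C130036L24Rik stood at 5.39, 5.48 and 5.50 on day 1 and at 5.86, 6.20 and 6.03 on day 3, a difference of 0.58 (SE 0.0908, 1.49-fold, adjusted p = 0.0428). In neither did the groups overlap. Gm24463 was higher still at later times, with means of 7.23, 7.74 and 7.21 on days 7, 14 and 28, and the sham day 3 array, at 6.44, lay above both sham day 1 arrays, at 6.04 and 6.01. Neither gene passed without iron day 1 replicate 1 (adjusted p = 0.0777 for Gm24463 and 0.137 for C130036L24Rik). C130036L24Rik lost its call under 17 alternatives in all, among them quantile normalization (adjusted p = 0.0685), median centring (0.0627) and no filter (0.06), with adjusted p from 0.00522 to 0.333 over the alternatives.

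The C130036L24Rik promoter is shown because this gene neighbours Ncl, the nucleolin gene, whose introns carry Snord82 and Snora75. The capitals in chr1:86359464-86359583 (GRCm38.p6, + strand) mark 2 matches to TGACG, the half-site bound by CREB and ATF factors, 68 and 37 bases before the start. TGACG was searched on both strands and is contained in TGACGTCA.
C130036L24Rik: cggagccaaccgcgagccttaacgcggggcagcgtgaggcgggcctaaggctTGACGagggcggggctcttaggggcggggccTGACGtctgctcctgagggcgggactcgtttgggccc

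**Figure D2:**
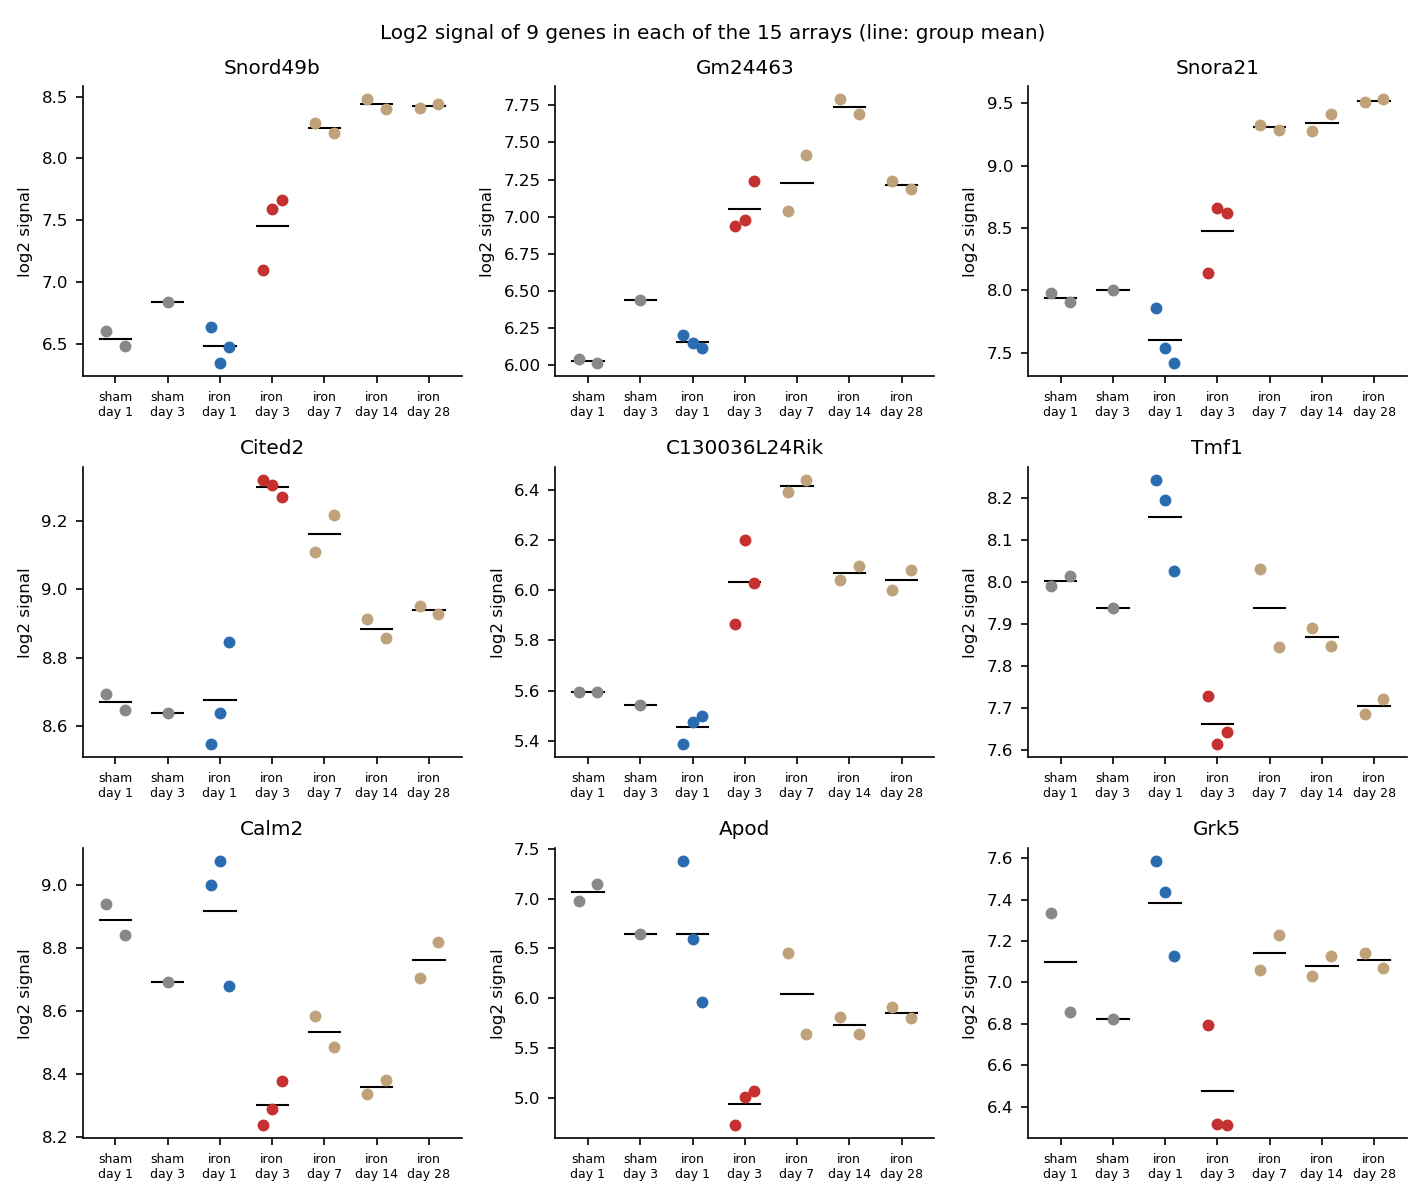
Log2 signal (y axis) of 9 genes in each of the 15 arrays, by group (x axis); each point is 1 array and each line a group mean. The 5 genes that passed (Snord49b, Gm24463, Snora21, Cited2, C130036L24Rik) sit higher in iron day 3 (red) than in iron day 1 (blue), and Tmf1, Calm2, Apod and Grk5, which did not pass, sit lower.

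Small nucleolar RNAs stood higher on day 3 as a class. Of 53 on the array 27 were tested, and 2 of them rose at the adjusted threshold, against 0.0502% of all genes. All 27 differences were above 0, 22 of them at an unadjusted p under 0.05, against 6.3% of all genes in that direction, and 0 were lower. The median difference was 0.77, where the median over all genes was 0.01. The 26 not tested because of low signal included 20 above 0, with a median of 0.39.

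Snord49b, a C/D RNA, stood at 6.63, 6.35 and 6.48 on day 1 and at 7.10, 7.59 and 7.66 on day 3. It rose by 0.97 (SE 0.138, 1.95-fold, adjusted p = 0.0273), and the groups did not overlap. Snora21, an H/ACA RNA, stood at 7.86, 7.53 and 7.42 on day 1 and at 8.14, 8.66 and 8.62 on day 3. It rose by 0.87 (SE 0.135, 1.83-fold, adjusted p = 0.0428), again without overlap. In both RNAs the lowest day 3 value was that of replicate 1, and both means were higher again on days 7, 14 and 28, at 8.25, 8.44 and 8.42 for Snord49b and 9.31, 9.34 and 9.52 for Snora21. The sham day 1 and day 3 means were 6.54 and 6.84 for Snord49b and 7.94 and 8.00 for Snora21, below every day 3 array after iron. The Snora21 sham means also lay above every day 1 array after iron, the highest of which was 7.86. For Snord49b the sham day 1 mean lay within the range of the iron day 1 arrays and the sham day 3 mean above it. Without iron day 1 replicate 1 both passed (adjusted p = 0.0452 for each). Snora21 lost its call under 13 of 26 alternatives, among them the sham days as separate means (adjusted p = 0.0636), and its adjusted p ran from 0.00085 to 0.356. Snord49b lost its call under 9 of 26, with adjusted p from 0.000409 to 0.31.

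The class with C/D boxes had 12 tested members and a median difference of 1.09, and the H/ACA class 14 with a median of 0.75. The largest difference of all genes tested was in an RNA that did not pass. Snord82, from an intron of Ncl, stood at 6.71, 6.50 and 6.24 on day 1 and at 7.00, 8.92 and 9.26 on day 3 (difference 1.91, SE 0.405, adjusted p = 0.119). Snord104 stood at 6.87, 6.72 and 6.88 and then at 7.47, 8.78 and 9.13 (1.64, SE 0.309, adjusted p = 0.0725). Snord57, from an intron of the snoRNP protein gene Nop56, stood at 9.09, 8.55 and 8.40 and then at 8.74, 10.85 and 10.99 (1.51, SE 0.425, adjusted p = 0.189). These RNAs share 1 pattern: replicates 2 and 3 of day 3 lay far above day 1, and replicate 1 of day 3 lay near it or inside its range. Snord33 (1.57), Snora7a (1.49), Snord47 (1.29) and Snord35b (1.20) were of similar size.

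The split among the day 3 arrays can be read from the mean of the 27 RNAs, each centred over the 15 arrays. That mean was -0.71, -0.96 and -0.92 in the day 1 arrays and -0.56, 0.17 and 0.36 in the day 3 arrays. Replicate 1 of day 3 therefore lay just above the day 1 arrays and next to the sham day 3 array. Without it, 30 genes were higher and 3 lower at the adjusted threshold. Of those 33 genes, 16 were small nucleolar RNAs, among them Snord82 (2.60, adjusted p = 1.1e-05), Snora7a (2.19, adjusted p = 1.36e-05) and Snord57 (2.24, adjusted p = 5.83e-05), and 8 were protein-coding. That array was set apart by its low signals of these same RNAs, so these adjusted p are no separate evidence for them. With all arrays Snord82 had an adjusted p of 0.119. Without iron day 3 replicate 2 or 3, 0 genes passed in either direction. The median over the small nucleolar RNAs was 0.92 without that array and 0.84 without iron day 1 replicate 1.

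Host transcripts did not show differences of that size. After these values were seen, each short RNA was paired with the gene whose annotated span holds it, regardless of strand. In 14 pairs both partners were tested, with 13 hosts and with Snord73b, annotated as a small nuclear RNA, counted among the short RNAs. The host genes had a median difference of -0.05 and ran from -0.24 to 1.33, and 0 passed with limma, against 0.0502% of all genes. At an unadjusted p under 0.05, 2 of 13 were higher and 2 lower, against 6.3% and 6.63% of all genes. The short RNA exceeded its host in 13 of 14 pairs, which adds little, since the tested small nucleolar RNAs were already known to lie above 0. Ncl, which encodes nucleolin, stood at 8.88, 8.84 and 8.86 on day 1 and at 8.88, 8.80 and 8.74 on day 3, so its groups overlapped while Snord82 differed by 1.91 and Snora75 by 0.78. The ribosomal protein gene Rpl23, host of Snora21, differed by -0.08 (SE 0.0828), and Nop56 by 0.26 (SE 0.099).

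Gas5 was the exception. It is a noncoding host of many C/D RNAs whose transcript is stabilised when growth and translation stop. It stood at 7.31, 7.24 and 7.21 on day 1 and at 7.86, 8.78 and 9.12 on day 3, with no overlap, a difference of 1.33 (SE 0.247, adjusted p = 0.0725), beside 1.29 for Snord47 within it. Without iron day 3 replicate 1, whose Gas5 value was the lowest of day 3, Gas5 reached 1.69 (adjusted p = 0.000409). The window before the second of the 2 Gas5 starts in the table, chr1:161035046-161035165 (GRCm38.p6, + strand), is printed because it holds a full TGACGTCA site, in capitals, 46 bases before that start. The first start has 0 matches, and 2.68% of promoters of genes tested hold this site.
Gas5: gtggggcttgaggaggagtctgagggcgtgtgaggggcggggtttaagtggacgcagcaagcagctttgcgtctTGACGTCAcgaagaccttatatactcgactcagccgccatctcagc

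**Figure D3:**
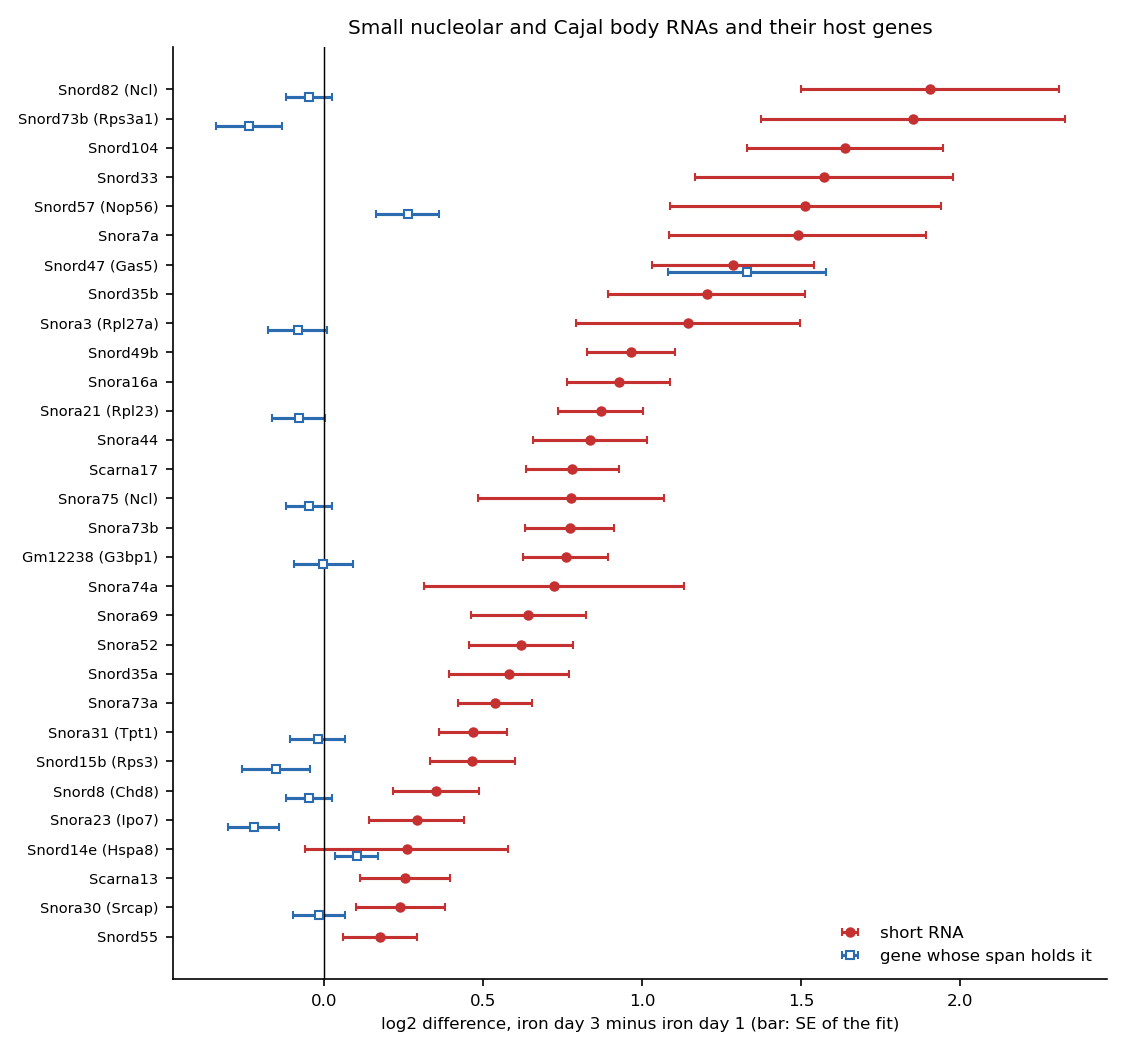
Log2 difference of iron day 3 minus iron day 1 (x axis) of 30 small nucleolar and related RNAs (red circles), with the gene whose span holds each where it was tested (open blue squares, name in brackets); bars are the standard error of the fit. The short RNAs all lie right of 0, and among the hosts only Gas5 lies beyond 1.

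Other short structured RNAs followed the same direction. Of 17 on the array 11 were tested, all above 0, with 7 at an unadjusted p under 0.05, against 6.3% of all genes, 0 at the adjusted threshold and a median of 0.54. They included Snord73b (1.85), the Y RNA Rny3 (1.14), the RNase P RNA Rpph1 (0.79, adjusted p = 0.0815), the Cajal body RNA Scarna17 (0.78), the minor spliceosome RNA Rnu12 (0.75) and the RNase MRP RNA Rmrp (0.43). Rpph1 stood at 10.11, 9.92 and 10.47 on day 1 and at 10.57, 11.13 and 11.16 on day 3, again with replicate 1 lowest on day 3. Rn7sk, the RNA that holds the elongation factor P-TEFb inactive, differed by 0.05. The 37 microRNA genes tested, of 297 on the array, had a median of 0.23 (0.14 without iron day 1 replicate 2), with 8 higher and 0 lower at an unadjusted p under 0.05, against 6.3% and 6.63% of all genes, and 0 passing with limma. Mir133a-1, a muscle microRNA gene, stood at 5.79, 6.31 and 6.15 on day 1 and at 7.54, 7.77 and 7.06 on day 3 (1.37, adjusted p = 0.17). Such a probe set reads the locus and does not tell a hairpin from the mature strands.

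Immediate early genes stood higher on day 3 as a list, without any single gene passing. Of 41 on the array 35 were tested: 0 passed with limma, 17 were higher and 0 lower at an unadjusted p under 0.05, against 6.3% and 6.63% of all genes, and 32 of 35 differences were above 0, with a median of 0.52. The arrays of the groups did not overlap for 17 members, all higher, against 9.74% of all genes. Without iron day 1 replicate 1 the median was 0.45 with 13 members at that unadjusted level, and without iron day 3 replicate 1 it was 0.37.

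The nuclear receptor genes Nr4a3 and Nr4a1, which act without a known hormone, were among the largest. Nr4a3 stood at 6.37, 6.75 and 7.15 on day 1 and at 8.40, 8.66 and 8.45 on day 3 (1.75, SE 0.355, adjusted p = 0.0927). Nr4a1 stood at 8.00, 8.46 and 8.72 and then at 9.86, 9.70 and 9.41 (1.26, SE 0.287, adjusted p = 0.127). Neither overlapped between the days, and in both the lowest of the 6 arrays was iron day 1 replicate 1. Sham arrays spanned 6.18 to 7.17 for Nr4a3 and 8.17 to 8.99 for Nr4a1.

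Dusp1, a phosphatase that switches off MAP kinases, stood at 9.77, 10.07 and 10.13 on day 1 and at 10.93, 10.84 and 10.65 on day 3 (0.82, SE 0.22, adjusted p = 0.177). Among the AP-1 genes Jund differed by 0.57 (adjusted p = 0.189), Fosl2 by 0.70 (adjusted p = 0.2) and Jun by 0.73 (adjusted p = 0.253), none with overlap. Atf3, a stress-induced repressor, stood at 7.75, 9.18 and 9.49 on day 1 and at 10.25, 10.19 and 10.24 on day 3. Its day 1 arrays were spread over more than 1 log2 unit and its day 3 arrays were almost equal, and the difference of 1.42 became 0.89 without iron day 1 replicate 1. Zfp36l1, which encodes a protein that speeds the decay of AU-rich messages, differed by 0.71 (adjusted p = 0.18). Myc (-0.10) and Dusp6 (-0.29) were below 0.

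The promoters of these genes were searched on both strands for 9 motifs, chosen after the values were seen and each given here with its share. TGACG was in 24 of the 37 promoters listed for 29 of the tested early genes (64.9%), in 26.7% of promoters of genes tested and in 17.8% of all 32851 promoters of the table. The full TGACGTCA was in 8.11%, 2.68% and 1.55% of these, TGANTCA, the AP-1 site, in 5.41%, 4.28% and 6.75%, and the CArG box of serum response factor in 18.9%, 1.25% and 1.47%. Several promoters can belong to 1 gene: the CArG matches lie in 7 promoters of 4 early genes, Dusp5, Egr2, Srf and Zfp36, with 5 starts listed for Egr2 alone. Counted by gene, TGACG was found for 18 of the 29 early genes (62.1%) and 31.1% of genes tested, and the CArG box for 13.8% and 1.5%. The E-box CACGTG was in 13.5% of the early gene promoters and 8.5% of those of genes tested, and ACGTG, which lies within it, was in 27.0% and 21.8%. The TATA box TATAAA was in 13.5% and 6.7%, the amino acid response letters TGATGNAA were in 2.7% and 2.09%, and the Nr4a monomer site AAAGGTCA was in 0% and 0.891%. These early genes are known for CREB and serum response factor sites, and a match is a description of letters only. Nr4a3 and Dusp1 are shown for their matches. In the Nr4a3 window, chr4:48045058-48045177 (GRCm38.p6, + strand), capitals mark 4 TGACG matches on either strand, the first 231 bases before the start. In the Dusp1 window, chr17:26508552-26508671 (GRCm38.p6, - strand), capitals mark 1 TGACGTCA site 143 bases before the start.
Nr4a3: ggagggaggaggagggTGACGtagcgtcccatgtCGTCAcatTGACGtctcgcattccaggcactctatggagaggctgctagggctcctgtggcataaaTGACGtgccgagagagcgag
Dusp1: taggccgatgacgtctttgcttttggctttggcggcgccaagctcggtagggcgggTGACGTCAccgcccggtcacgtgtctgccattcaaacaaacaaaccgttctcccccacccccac

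Growth arrest and stress genes, some of which are also in the unfolded protein list, showed a similar direction. Of 22 tested, 0 passed with limma, 11 were higher and 0 lower at an unadjusted p under 0.05, against 6.3% and 6.63% of all genes. The median was 0.33, or 0.25 without iron day 1 replicate 1 and 0.21 without iron day 3 replicate 1. Ddit3, which encodes the stress transcription factor CHOP, stood at 6.59, 6.77 and 6.73 on day 1 and at 8.13, 7.64 and 7.73 on day 3 (1.14, SE 0.195, adjusted p = 0.0564), with no overlap. Its sham arrays, at 6.84, 6.43 and 6.61, lay around those of day 1. Otud1, a deubiquitinase gene, differed by 1.72 (adjusted p = 0.177), Atf4, the translation-controlled regulator of amino acid stress genes, by 0.60 (adjusted p = 0.219), and Gadd45a and Gadd45b, growth arrest genes, by 0.39 (adjusted p = 0.192) and 1.07 (adjusted p = 0.189). Gadd45b overlapped between the days, at 6.50, 7.04 and 7.88 and then 8.25, 7.84 and 8.53.

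Related stress lists stood near 0. The 13 p53 target genes tested had a median of 0.04, with 1 higher and 0 lower at an unadjusted p under 0.05, and the 21 DNA repair genes had a median of -0.02, with 2 higher and 1 lower. The 25 genes of the unfolded protein response had a median of 0.04, with 5 higher and 0 lower, including Ddit3, Atf4, the ERAD ligase gene Syvn1 (0.31) and the chaperone gene Dnajb9 (0.28). In none of these lists did a gene pass with limma. At the unadjusted level 6.3% of all genes tested were higher and 6.63% lower.

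**Figure D4:**
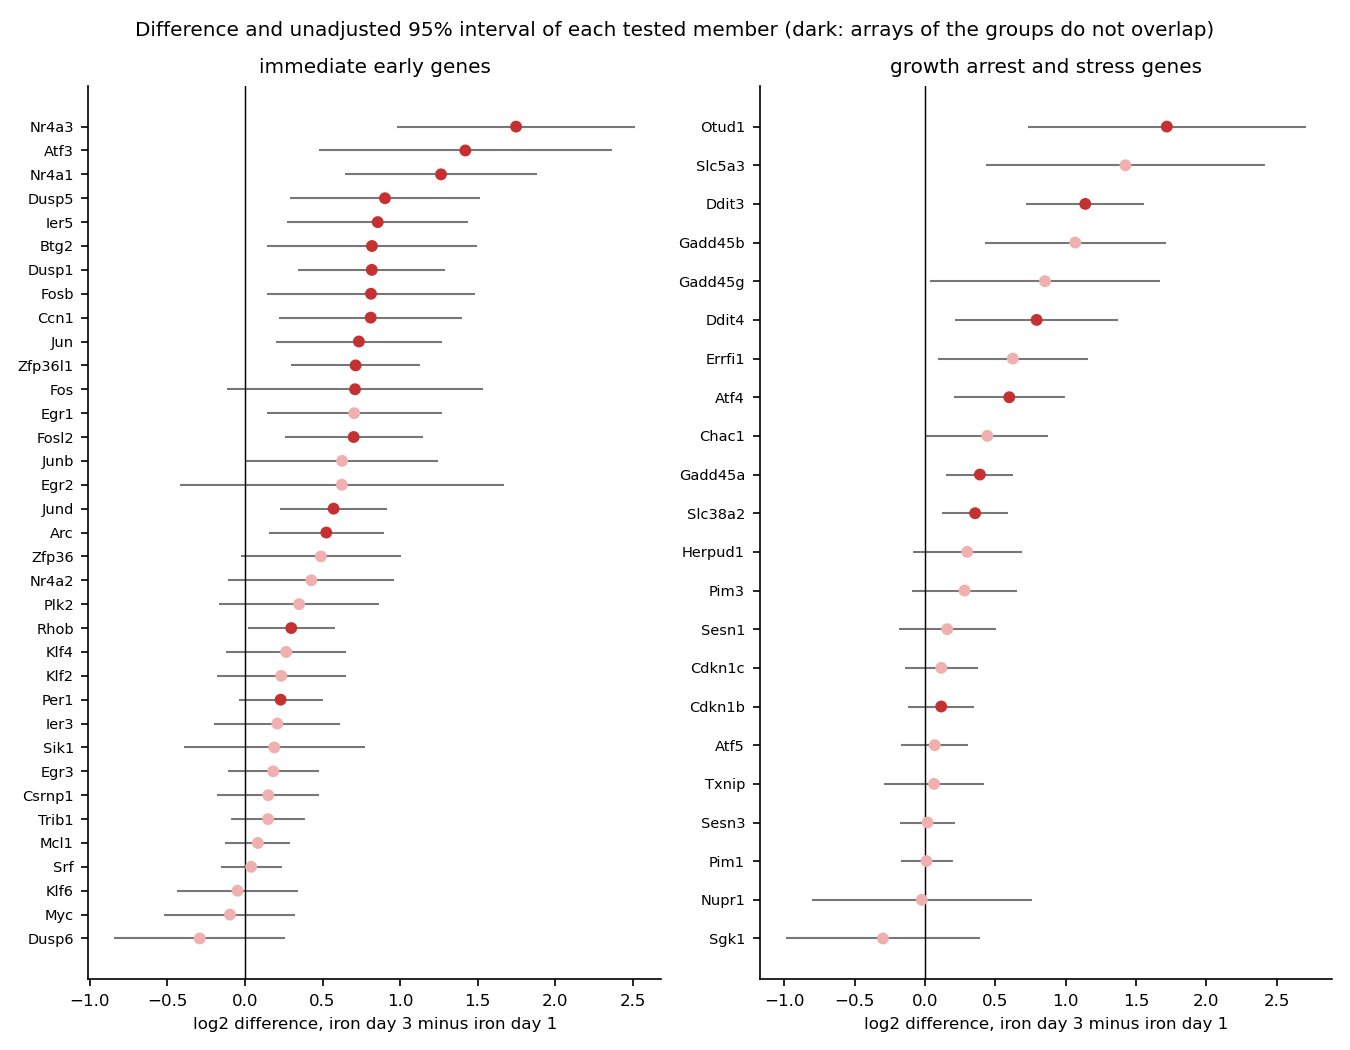
Log2 difference of iron day 3 minus iron day 1 (x axis) of each tested immediate early gene (left, 35) and growth arrest or stress gene (right, 22), with its unadjusted 95% interval; dark points mark genes whose arrays do not overlap between the days. Most points lie right of 0, up to 1.75 for Nr4a3 and 1.72 for Otud1.

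On the lower side no gene passed with limma, and the 4 genes with the smallest p, none of which overlapped between the days, are given. Apod, a lipid-binding lipocalin gene, stood at 7.38, 6.59 and 5.96 on day 1 and at 4.73, 5.01 and 5.08 on day 3 (-1.70, SE 0.287, adjusted p = 0.0548). Its highest array was iron day 1 replicate 1, and the difference without it was -1.34. Calm2, 1 of the calmodulin genes, stood at 9.00, 9.08 and 8.68 and then at 8.24, 8.29 and 8.38 (-0.62, SE 0.103, adjusted p = 0.0548). Tmf1, a Golgi protein gene, differed by -0.49 (SE 0.0813, adjusted p = 0.0548). Grk5, the kinase that desensitises G protein-coupled receptors in heart muscle, stood at 7.58, 7.44 and 7.13 and then at 6.79, 6.32 and 6.31 (-0.91, SE 0.163, adjusted p = 0.0651). All 4 were among 6 genes that were lower at the adjusted threshold when the arrays were first centred on their medians, with adjusted p of 0.0359 for Apod, Calm2 and Tmf1 and 0.0463 for Grk5. With that centring 24.7% of the 1441 genes at an unadjusted p under 0.05 were higher on day 3, where it was 48.7% of 1289 without it.

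Markers of fibroblasts, endothelial cells, macrophages and smooth muscle stood lower on day 3, by less when 1 array was left out. In these bulk preparations fewer cells of a type and less RNA per cell cannot be told apart. Of 15 fibroblast markers tested 0 passed with limma, 9 were lower and 0 higher at an unadjusted p under 0.05, against 6.63% of all genes, and the median was -0.52. Endothelial markers had a median of -0.52 (7 of 18 lower at that level), macrophage and monocyte markers -0.58 (4 of 15), and smooth muscle and pericyte markers -0.44 (3 of 9, with 1 higher). In all of them 0 passed with limma. Without iron day 1 replicate 1 these medians were -0.20, -0.18, -0.22 and -0.16, with 3 fibroblast, 1 endothelial, 1 macrophage and 1 smooth muscle marker lower at the unadjusted level. The macrophage median was -0.91 without iron day 1 replicate 3.

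Of the other cell type lists, adipocyte and red cell markers also stood lower, while the rest with tested members had medians above 0. The 8 mesothelial and epicardial markers tested were all above 0, with a median of 0.37 and 1 higher at an unadjusted p under 0.05, against 6.3% of all genes. Their median was 0.48 without iron day 1 replicate 1, 0.13 without iron day 1 replicate 3 and 0.22 without iron day 3 replicate 3. Medians were 0.13 for 6 lymphocyte markers, 0.18 for 3 thymocyte markers, 0.07 for 8 atrial markers and 0.06 for 4 Schwann cell and neuronal markers, with 0 at that level in either direction. The 8 airway and lung epithelium markers had a median of 0.12, which was 0.71 without iron day 1 replicate 1 and -0.32 without iron day 1 replicate 3. The 5 adipocyte markers, with Fabp4 shared with the endothelial list, had a median of -0.25 (-0.15 without iron day 1 replicate 1), and the 4 red cell markers -1.14 (-0.36 without it). At an unadjusted p under 0.05, 3 adipocyte markers and 1 red cell marker were lower and 0 higher, against 6.63% and 6.3% of all genes. Without iron day 1 replicate 1 these were 2 and 0 lower. In none of these lists did a gene pass with limma, and 0 of the 13 neutrophil markers had enough signal to be tested.

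The mean of the fibroblast markers, each centred over the 15 arrays, was 0.48, -0.39 and -0.61 on day 1 and -0.71, -0.82 and -0.60 on day 3. For endothelial markers it was 0.58, -0.37 and -0.39 and then -0.73, -0.58 and -0.36, and for macrophage markers 0.24, -0.50 and -0.83 and then -0.88, -0.97 and -0.65. Replicate 1 of day 1 thus lay above 0 in all 3 lists while its fellows lay close to the day 3 arrays, and the part of these cells in the gene differences above was not tested. The fibroblast matrix gene Postn stood at 8.48, 7.46 and 7.03 on day 1 and at 6.68, 6.35 and 6.74 on day 3 (-1.07, SE 0.275, adjusted p = 0.17, and -0.66 without that array). Pecam1, an endothelial junction gene, stood at 8.68, 7.55 and 7.73 and then at 7.23, 7.26 and 7.41 (-0.69, adjusted p = 0.277, and -0.34 without it). Acta2, smooth muscle actin, went against that pattern. It stood at 10.10, 10.43 and 10.37 and then at 9.36, 8.22 and 9.37, a difference of -1.32 (SE 0.386, adjusted p = 0.199) that was -1.42 without iron day 1 replicate 1.

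**Figure D5:**
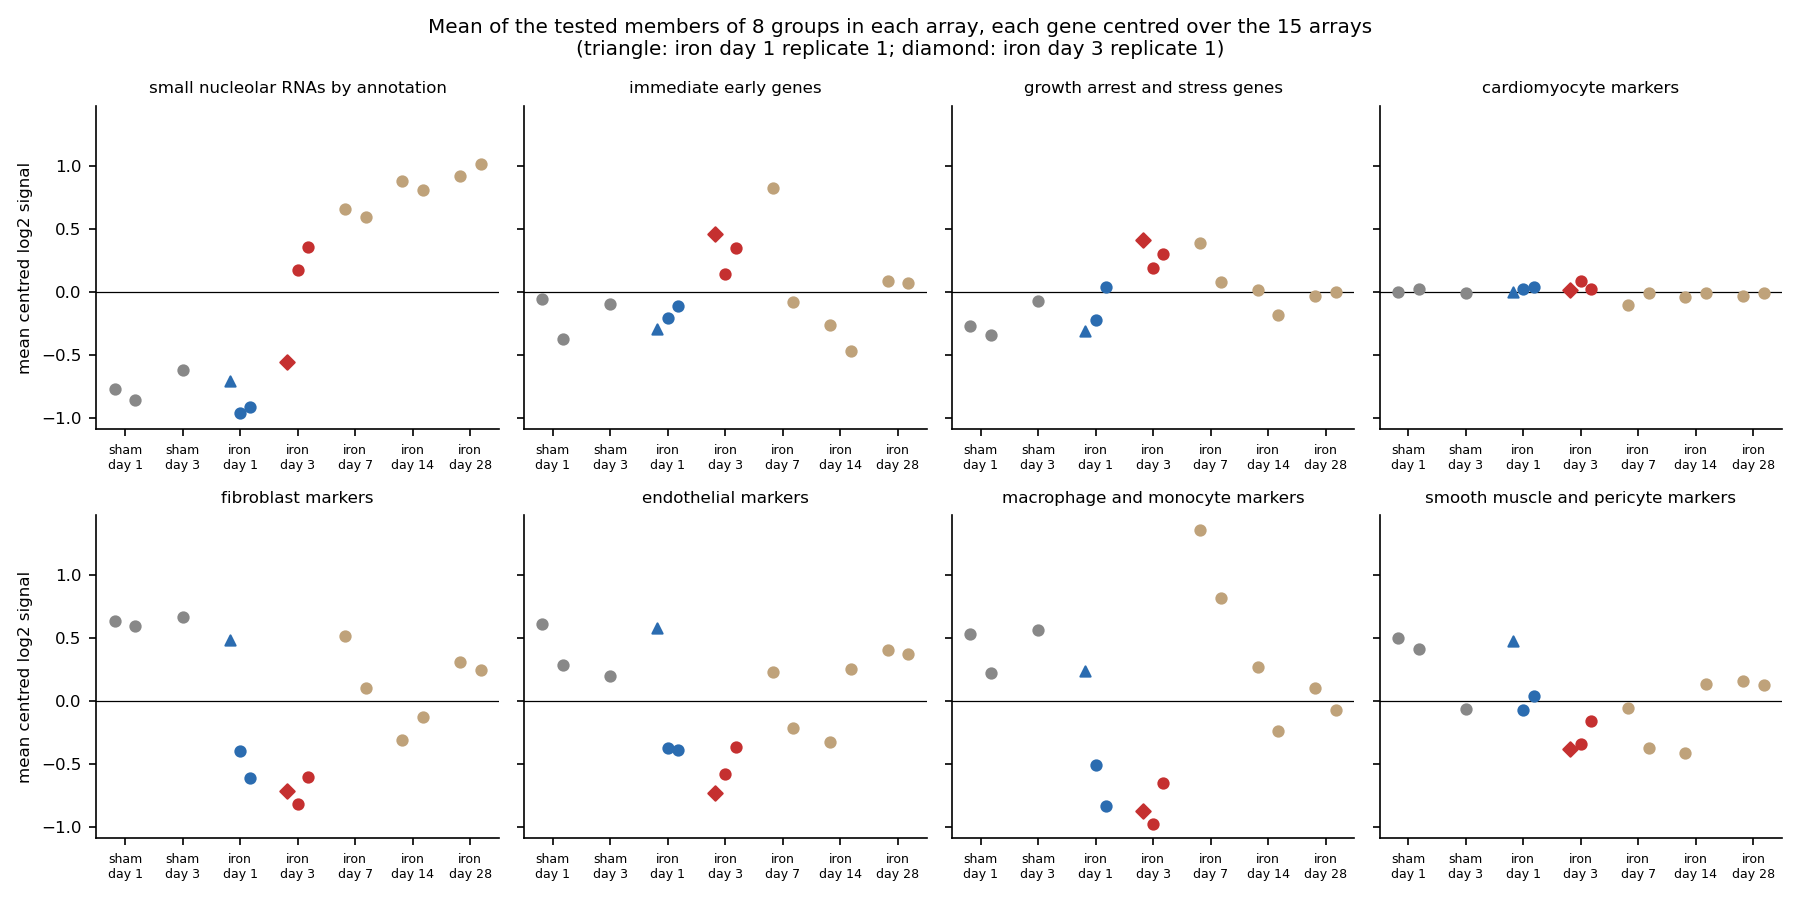
Mean log2 signal of the tested members of 8 groups of genes, each gene centred over the 15 arrays (y axis), in every array by group (x axis); triangles are iron day 1 replicate 1 and diamonds iron day 3 replicate 1. For small nucleolar RNAs the diamond (-0.56) lies apart from the other day 3 arrays (0.17 and 0.36), and for fibroblast, endothelial and macrophage markers the triangle (0.48, 0.58 and 0.24) lies near the sham arrays.

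The matrix genes outside the collagens, which share members such as Postn and Lum with the fibroblast list, had a median of -0.32 over 37 tested, with 10 lower and 1 higher at an unadjusted p under 0.05, against 6.63% and 6.3% of all genes. The median was -0.07 without iron day 1 replicate 1 and -0.60 without iron day 1 replicate 3. Aspn, a small leucine-rich proteoglycan gene, stood at 7.53, 6.86 and 6.52 on day 1 and at 5.45, 5.83 and 6.40 on day 3 (-1.07, adjusted p = 0.156). Fmod, of the same family, went the other way, at 5.49, 5.48 and 5.58 and then 5.89, 6.00 and 6.52 (0.62, adjusted p = 0.232). The 14 collagen chain genes had a median of -0.13, with 0 at the unadjusted level in either direction. That median had no settled sign or size, at 0.01 without iron day 1 replicate 1, -0.32 without iron day 1 replicate 3, -0.25 without iron day 1 replicate 2 and -0.43 with the stricter filter on signal.

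Genes of contraction and energy supply stood level between the days. Medians were 0.03 for 49 oxidative phosphorylation genes (2 higher and 0 lower at an unadjusted p under 0.05), 0.00 for 26 fatty acid oxidation genes (0 and 1), 0.01 for 30 genes of glucose use and the tricarboxylic acid cycle (0 and 1) and -0.01 for 26 sarcomere and Z-disc genes (2 and 2). Calcium handling genes had a median of -0.03 over 17 tested, with 3 lower: Calm2, the sorcin gene Sri (-0.30, adjusted p = 0.239) and the sodium-calcium exchanger gene Slc8a1 (-0.29, adjusted p = 0.253). None of the genes in these lists passed with limma. At an unadjusted p under 0.05, 6.3% of all genes tested were higher and 6.63% lower. Median centring took the oxidative phosphorylation genes to -0.02, the fatty acid genes to -0.04 and the glucose genes to -0.04, so these medians have no settled sign.

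Genes of protein synthesis and breakdown lay slightly below 0. The 32 ribosomal protein genes had a median of -0.15, with 7 lower and 1 higher at an unadjusted p under 0.05, against 6.63% and 6.3% of all genes, and 0 passing with limma. The median was -0.08 without iron day 3 replicate 2. Rps18 stood at 9.99, 9.79 and 10.03 on day 1 and at 9.76, 9.61 and 9.60 on day 3 (-0.28, adjusted p = 0.17). The 26 proteasome genes had a median of -0.12 (0 higher and 4 lower, and -0.06 without iron day 1 replicate 3), and the 25 ribosome assembly genes -0.03 (2 and 2), so the protein genes of the ribosome pathway did not share the direction of the small nucleolar RNAs.

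Sham arrays of the same days give the only measure of a day difference without exposure, from 2 arrays on day 1 and 1 on day 3. The difference of the iron day difference and the sham day difference passed for 7 genes (0.0702% of those tested, with limma and sham days fitted apart, and 10.4% at an unadjusted p under 0.05), none of which was among the 5 that rose. For those 5 the estimates of that difference were 0.65 for Cited2 (SE 0.145, adjusted p = 0.194), 0.67 for Snord49b (adjusted p = 0.404), 0.81 for Snora21 (adjusted p = 0.354), 0.49 for Gm24463 (adjusted p = 0.439) and 0.63 for C130036L24Rik (adjusted p = 0.274). The median over the small nucleolar RNAs was 0.23 between the sham days, beside 0.77 between the iron days, and over the immediate early genes 0.12 beside 0.52. With 1 sham array on day 3 these data do not show that the day differences belong to the exposure.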

How the data were processed

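The values are the authors' processed log2 signals per probe set on an Affymetrix array hybridised with biotinylated cRNA, as deposited, per the file headers and labels. The submitters' processing notes name MAS5. No version, scaling or centring is given in the sources used here. The array medians ran from 4.96 to 5.13. Of 34760 probe sets, 21640 carried 1 gene symbol, 1321 several and 11799 none. The probe set with the highest mean over 15 arrays stood for each of 19937 genes, and the 9969 at or above the 50th percentile of mean signal were tested. limma 3.58.1 (R 4.3.3) fitted 6 group means (sham days pooled, 9 residual degrees of freedom) with an intensity trend, and 7 group means for the comparison with sham. The fit was tested on simulated data with independent normal noise for each gene, a setting that holds no outlying arrays. Tables, promoter searches and figures used Python 3.11.15. The number of arrays limits the precision.

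The comparison and the 47 gene lists (929 of 1003 symbols on the array) were chosen with earlier results of these data known. Genes were named as up to 12 per direction that passed without overlap, or the 4 smallest p where fewer than 4 did, and up to 6 members per list by smallest p, with others where needed to describe a list. Short RNAs, microRNAs and host genes came from the RefSeq table's annotation, and RefSeq promoters (GRCm38.p6) were matched by symbol. The main fit did not pair arrays by replicate number. Same-numbered residuals correlated at -0.149, -0.029 and -0.286, and different-numbered ones at -0.068 to 0.224. Residuals centred within groups of 3 arrays are tied to one another, so these values cannot exclude a pairing. Alternatives were other normalizations, filters, models and left-out arrays, and the averaging of the iron day 28 arrays, added after the data were seen.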

Additional observations from a re-analysis of the deposited data

Results flagged for a closer look

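The iron day difference differed from the sham day difference, by limma's test of the difference itself, in 7 genes, all with a sham day 3 value well above the sham day 1 values and none with a difference between the iron days that passed. With 1 sham array on day 3, each of these tests rests on that array. The estimates of the iron day difference minus the sham day difference were -1.53 for the F-box gene Fbxo36, -1.59 for the pirin gene Pir, -2.03 for the cilium gene Cfap126, -3.28 for the lipid transfer gene Sec14l3, -1.46 for Ccdc17, -2.52 for the cytochrome P450 gene Cyp2b10 and -0.83 for the cytochrome b5 gene Cyb5a. Sec14l3 stood at 8.60 in the sham day 3 array, at 5.23 and 5.20 in the sham day 1 arrays and between 5.11 and 5.72 in the 6 iron arrays compared. The sham day 3 array also had high signals on the airway and lung epithelium list, whose median sham day difference was 2.62 over 8 genes tested. The part of such cells in these 7 results was not tested.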

How the results depend on the processing

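The 5 higher genes became 8 with array weights, 3 with the sham days as separate means, and 0 with only the 6 arrays compared, with a replicate block on those arrays or with the iron day 28 arrays averaged. Leaving out 1 array at a time gave 0 to 30. The lower genes, 0 as reported, were 6 with median centring, 2 with the stricter filter, 2 with array weights and 1 with all probe sets, and 0 to 7 with 1 array left out (7 without iron day 1 replicate 3). The 7 genes whose day difference departed from sham were 127 with no filter, 1 with the stricter filter, 26 with array weights and 4 to 21 with 1 array left out. Without the sham day 3 array that comparison could not be fitted. The cause of these moves was not tested. The alternatives were followed for 47 genes, those named by the rule and members of some lists with the smallest p. Others named above, such as Snord82, Gas5 and Acta2, were not among them. None of the 47 changed direction, but they were chosen by their p in this comparison, and many alternatives leave the estimate unchanged. Of 48 lists, 24 had a median of the other sign under at least 1 alternative, 12 of them without iron day 1 replicate 1 and 8 with median centring, all with a reported median of at most 0.134 in size. For these 47 genes 58 results lost and 44 gained the threshold and 1111 kept their side. For lists 30 medians moved by more than the spread between replicates and 1170 by less. Many of the 1170 could not move, since changes of the error model and left-out arrays of other groups do not enter a median. The fibroblast median, -0.52 as reported and -0.20 without iron day 1 replicate 1, was counted among the 1170.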

Other observations

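Heat shock genes also set iron day 1 replicate 1 apart from its group. Of 20 tested, 0 passed with limma. At an unadjusted p under 0.05, 3 were higher and 0 lower, against 6.3% and 6.63% of all genes. The median was 0.10, or 0.03 without iron day 1 replicate 1. Hspa1a, the inducible Hsp70 gene, stood at 8.34, 10.16 and 10.60 on day 1 and at 10.46, 10.45 and 10.76 on day 3, so its difference of 0.86 became 0.18 without that array. Hspb1, a small heat shock protein gene, stood at 10.48, 11.09 and 11.29 and then at 11.37, 11.41 and 11.31. Bag3, a cochaperone of the Z-disc, differed by 0.42 (adjusted p = 0.17) and by 0.32 without it.

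Single members of other lists stood apart without passing. Irs2, an insulin receptor substrate gene, stood at 5.91, 6.06 and 6.65 on day 1 and at 7.55, 7.38 and 7.01 on day 3 (1.11, adjusted p = 0.127). Cp, the ferroxidase ceruloplasmin, stood at 9.59, 9.67 and 9.26 and then at 9.18, 8.81 and 8.75 (-0.60, adjusted p = 0.12), and was 1 of the 3 lower genes at the adjusted threshold without iron day 3 replicate 1. Red cell genes varied between arrays of 1 day: Alas2, the heme synthesis gene of red cell precursors, stood at 10.09, 8.96 and 6.23 on day 1 and at 7.53, 6.30 and 8.79 on day 3. Circadian clock genes had a median of 0.10 over 18 tested, with 0 passing with limma. At the unadjusted level 1 was higher and 1 lower, against 6.3% and 6.63% of all genes.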
